A study of Triticum aestivum with 18 samples.

Results

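The first-day response of wheat line TXGBE273 to the greenbug aphid was examined by setting 3 leaf arrays at 24 h of infestation against 3 arrays at 0 h, 6 of the 18 arrays in the series. TXGBE273 is the greenbug-resistant member of a pair of near-isogenic lines, and TXGBE281 is the susceptible one. Plants were greenhouse-grown and at the 3-leaf stage, the 0 h leaves were labelled as controls, and the 24 h leaves came from plants that carried greenbug biotype E. The other groups used below for comparison are TXGBE273 at 48 h of infestation and TXGBE281 at 0 h and 24 h, with 3 arrays each. Each line stands for its resistance class alone. Whether the replicates were different plants is not stated, so the p-values below reflect only how far these arrays spread. No uninfested leaves at 24 h were analysed here, so infestation, plant age and time of sampling cannot be told apart in any difference from 0 h.

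The greenbug, Schizaphis graminum, is a phloem-feeding aphid of small grains whose feeding leaves yellow and dying patches on susceptible leaves. Leaves attacked by aphids are known to make pathogenesis-related proteins, enzyme inhibitors and cell wall phenolics, and photosynthetic genes are often lowered at the same time. Grasses also store benzoxazinoid defence compounds as glucosides, which beta-glucosidases cleave when tissue is damaged.

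Each probe set, a group of short probes for one transcript, carried a linear MAS5 signal, and changes are given as log2(signal + 16) at 24 h minus 0 h. Of 61179 non-control probe sets, 46251 were above their array's 40th percentile in at least 3 of the 18 arrays and were tested with limma. The filter removed 14928. A probe set is called when its Benjamini-Hochberg adjusted p over all tested probe sets is under 0.05, and "apart" means that the 3 arrays of one group all lie on one side of the 3 of the other. All arrays had a trimmed mean signal of 500.1, so changes are relative to that common level. The log2 signals of replicate arrays correlated with r of 0.936 to 0.939 at 0 h and 0.953 to 0.957 at 24 h, and arrays of different times with r of 0.87 to 0.892.

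After 1 day, 14872 of the 46251 probe sets were called, 32.2% of those tested. Of these, 8144 were higher (17.6%) and 6728 lower (14.5%). On the 3 arrays of each time, 20010 probe sets were apart (43.3%), and 14371 were both called and apart (31.1%). A log2 change of at least 1 was reached by 3331 of the higher and 4021 of the lower probe sets, and one of at least 2 by 670 and 1026. The order turned for the largest changes. At 4 or more there were 51 higher and 30 lower, at 5 or more 26 and 5, and at 6 or more 10 and 0. The middle of the distribution lay close to 0, with a median log2 change of -0.02 and quartiles of -0.54 and 0.47.

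The share of calls followed the signal. In the dimmest quintile of the tested probe sets 1.37% were called higher and 4.83% lower, against 41.1% and 27.1% in the brightest quintile, whose mean signals over all 18 arrays ran from 955 to 62600. At the very top the direction reversed: of the 100 brightest probe sets, 6 were called higher and 85 lower, with a median log2 change of -0.67. This balance depended on how arrays were set to a common level. After quantile normalization 25 of these 100 were higher and 10 lower, and after scaling on the bacterial hybridisation controls 14 were higher and 6 lower, whereas median centring kept the deposited direction with 8 higher and 71 lower. Over all tested probe sets the median log2 change was 0.05 after quantile normalization, 0.17 after median centring and 0.50 on the hybridisation control scale, so changes on those scales are read against these shifts. Over all probe sets 10856 were higher and 4968 lower with median centring, and 15393 higher and 2498 lower on the hybridisation control scale.

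**Figure D1:**
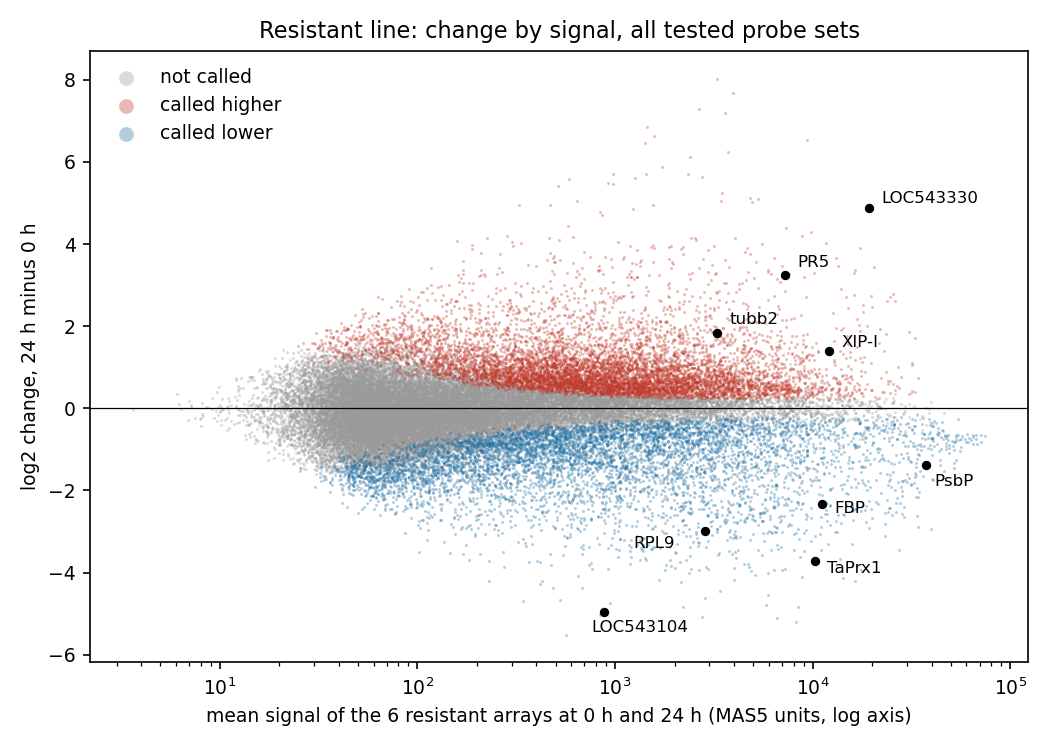
Log2 change of each of the 46251 tested probe sets in the resistant line (24 h minus 0 h, vertical axis) against its mean signal over the 6 arrays (MAS5 units, log axis). Red points were called higher, blue points lower and grey points not called, and calls crowd toward brighter signals, while the very brightest points sit mostly below 0.

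The brightness of the array itself shifted between the times. The probe sets with a signal over 20000 numbered 405, 444 and 432 at 0 h and 310, 284 and 241 at 24 h, and the highest signal on an array went from between 82710 and 100600 to between 53330 and 60260. The 9 bacterial hybridisation control probe sets, whose RNA is added in the laboratory, had geometric mean signals of 4163, 5599 and 4591 at 0 h and 3521, 3228 and 2687 at 24 h. Controls and the brightest plant transcripts were thus both lower at 24 h, and the part of this shift in the results was not tested.

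**Figure D2:**
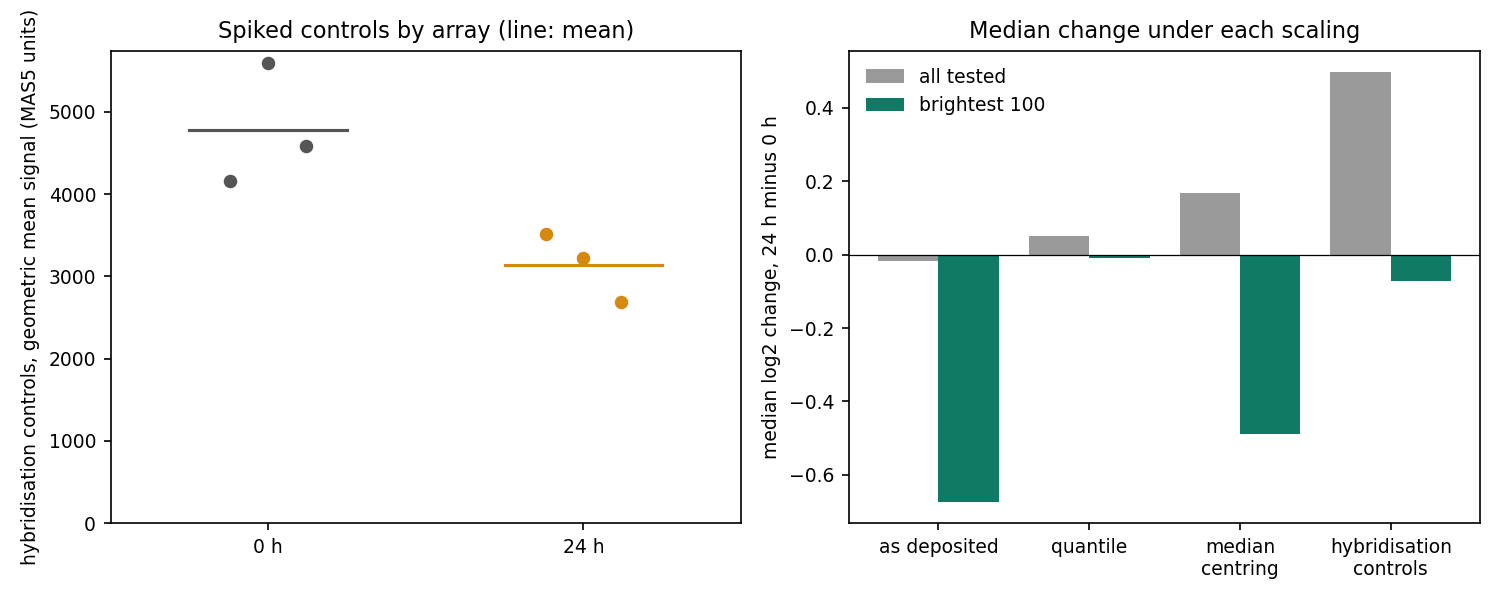
Left, geometric mean signal of the 9 hybridisation control probe sets on each array (points, MAS5 units) with group means (lines), lower on all 3 arrays at 24 h. Right, the median log2 change over all tested probe sets and of the 100 brightest under 4 ways of setting arrays to a common level, with the brightest at -0.67 as deposited and at -0.07 on the hybridisation control scale.

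The leaf identity of the samples was checked with marker genes. The 36 probe sets of 6 leaf genes had a summed signal between 507600 and 599600 at 0 h and between 256900 and 303400 at 24 h, and of the 28 tested, 14 were lower and 1 was higher. Over all tested probe sets 14.5% were lower and 17.6% higher, and 20 of these 28 belong to rbcL. These sums and calls are as deposited. After quantile normalization the brightest rbcL probe set (0.07) and PsbO (0.04) were uncalled, while PRK (-1.10) and the bright CAT1 probe set (-1.30) stayed lower. In bulk leaf tissue fewer cells of a type and less RNA per cell cannot be told apart. The 23 probe sets of 13 grain genes summed to 6864 to 7300 at 0 h and 7968 to 8832 at 24 h, and of the 14 tested 1 was higher and 0 lower. That one, avnlb Ta.27777.1.S1_at, was a bright signal that carried most of the sum, with 5832 to 6090 and then 7075 to 7645 (0.30, adjusted p = 0.00718). The 4 anther probe sets summed to 205.9 to 247.7 and 68.97 to 112, and the 1 tested, of raftin1b, was lower (-1.67, adjusted p = 0.0042). The part of these tissues' transcripts in the results was not tested, and the cuticle marker LTP3 was uncalled as deposited, with sums of 9749 to 11550 and 9473 to 11370. None of these probe sets read exactly 0.

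Only 1273 probe sets of the array are assigned to a single gene, and 60017 to none. Of the 1096 annotated probe sets tested, 291 were higher and 256 lower. Just 163 tested probe sets belonged to the 88 genes with a name beyond a LOC number, and of these 23 were higher and 53 lower, with a median log2 change of -0.34. On the deposited scale probe sets of genes with names were thus called lower more often than higher, the reverse of all tested probe sets. These are counts of probe sets and not of genes, and rbcL alone gave 20 of the 163 and 7 of the lower ones. Because wheat is hexaploid, a probe set may read related copies of its gene on other subgenomes, most of all where its name ends in _s_at or _x_at. Of the 242 genes with 2 or more tested probe sets, 38 had all of them higher, 37 all lower and 9 were called in both directions.

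Among genes with a name, PR5 rose most. It encodes a thaumatin-like pathogenesis-related protein, and it changed by 3.24 ± 0.42 on the log2 scale (SE, adjusted p = 4.25e-06). PR5 signals were 1462, 2183 and 586.3 at 0 h and 21890, 8249 and 9100 at 24 h. The lowest 24 h array thus lay well above the highest 0 h array, although replicates spread widely at both times. Of the 3 tested probe sets on the pathogenesis-related list, PR5 was the one called. The glucanase gene Glc1 had uncalled values of 0.22 (signals 1709, 1523 and 1775, then 1858, 2146 and 1824) and 0.13.

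XIP-I encodes a protein that inhibits the xylanases of fungi. Both of its probe sets rose. The first read 8984, 7048 and 8103 at 0 h and 23680, 19210 and 18040 at 24 h, a log2 change of 1.33 ± 0.14 (SE, adjusted p = 1.77e-07). The other changed by 1.40 ± 0.17 (adjusted p = 2.32e-06). They were the called members among 5 tested probe sets of inhibitor genes. The serpin genes WSZ1b and WSZ2a (-0.56 and -0.27) and the chymotrypsin inhibitor gene wci (0.37), all dim at both times, were not called.

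WZF1, a zinc-finger gene and the single tested member of the transcription factor list, rose by 1.51 ± 0.17 (SE, adjusted p = 8.31e-07). Its signals went from 2714, 2269 and 2056 to 6389, 6110 and 7588. COMT1, a methyltransferase gene of lignin synthesis, rose by 0.64 ± 0.15 (adjusted p = 0.00186), with 9897, 10920 and 10240 at 0 h and 20510, 14510 and 13960 at 24 h. The groups were apart for both genes. SAHH, which clears the by-product of methyl transfer, had 2 uncalled probe sets with changes of 0.18 and 0.43.

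PEAMT1, a methyltransferase gene of the route to choline, went the other way and fell by 3.18 ± 0.22 (SE, adjusted p = 9.47e-10). It read 15900, 17770 and 12340 at 0 h and 1237, 1963 and 1901 at 24 h. The methyl transfer and phenylpropanoid list, with COMT1 higher, PEAMT1 lower and SAHH uncalled, therefore had no common direction.

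TaGlu1a, a beta-glucosidase gene that releases benzoxazinoids from their glucosides, was the one member of its list. Its signals were 1194, 2284 and 1914 at 0 h and 3836, 2591 and 3015 at 24 h. It rose by 0.83 ± 0.28 (SE, adjusted p = 0.0288), with the lowest 24 h array only slightly above the highest 0 h array. The call was lost without 0 h replicate 1 (0.57), without 24 h replicate 1 (0.68), without 24 h replicate 3 (0.86) and in the fit with no variance trend (0.83). Lists for jasmonate, salicylate and ethylene, for kinases and resistance proteins, for calcium signalling and for nitrogen metabolism matched no annotated probe set, so the array's annotation leaves those pathways unread here.

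**Figure D3:**
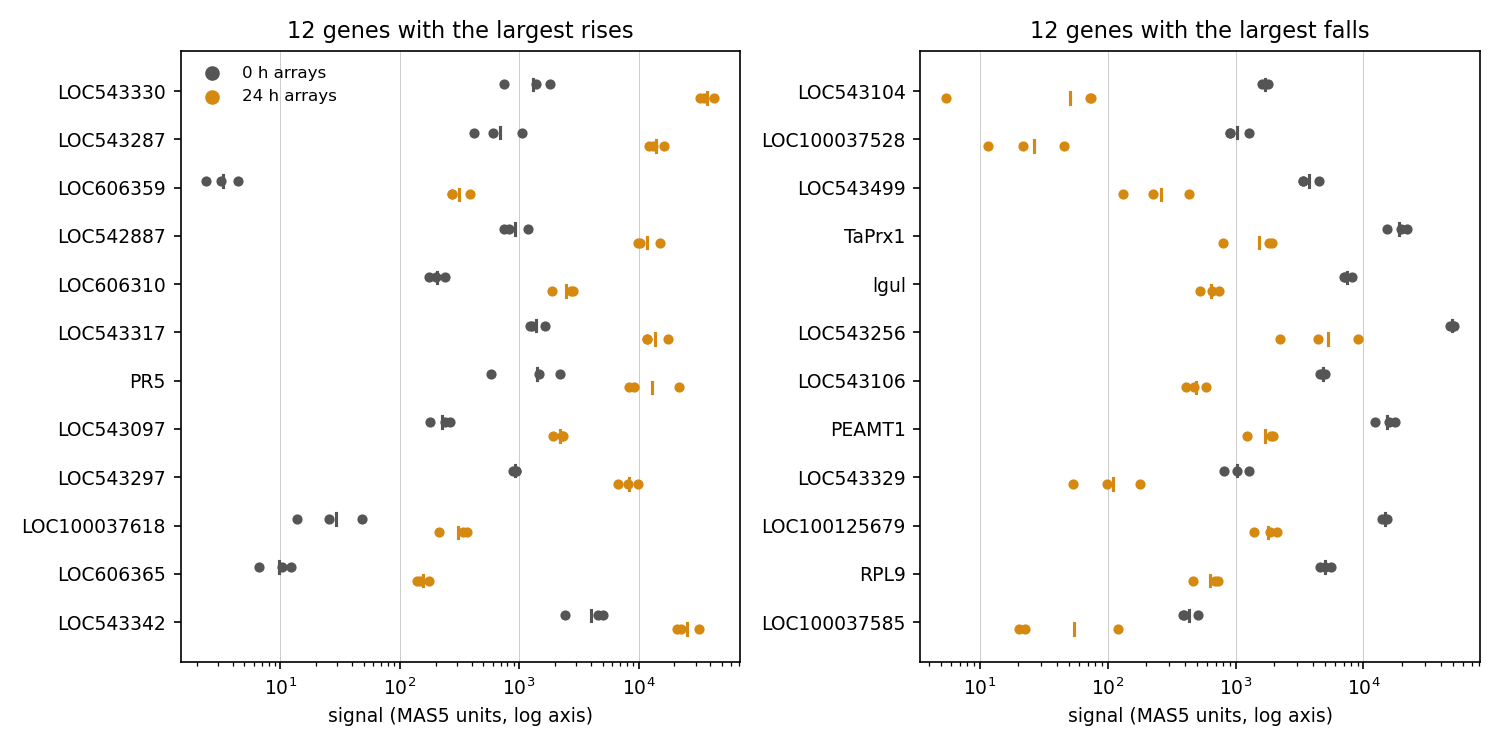
Signal on each array (log axis, MAS5 units) for the 12 named genes with the largest rises and the 12 with the largest falls, 1 probe set per gene, with 3 points at 0 h (grey) and 3 at 24 h (orange) and a line at each mean. The 0 h and 24 h points do not overlap for any gene shown, which the naming rule required.

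The largest rises among annotated genes belonged to genes known here only by LOC number. LOC543330 rose most, from 1381, 1802 and 746.9 to 43220, 35650 and 32640, a log2 change of 4.89 ± 0.26 (SE, adjusted p = 3.74e-11). At 24 h it was among the brighter signals of the leaf. LOC543287 went from 608.7, 1055 and 423.1 to 16450, 12140 and 13320 (4.38 ± 0.23, adjusted p = 4.06e-11). LOC542887 went from 754.6, 1192 and 823.5 to 15130, 10330 and 9878 (3.65), and LOC543317 from 1288, 1646 and 1245 to 17550, 11870 and 11690 (3.27). In each of these genes the 3 arrays at 24 h lay far above all 3 at 0 h.

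Other LOC genes rose from a wide range of starting levels. LOC606310 had 202.9, 176.8 and 242.1 at 0 h and 2803, 1886 and 2726 at 24 h (3.47) on one probe set and an uncalled -0.88 on its other. LOC543097 rose by 3.19 and LOC100037618 by 2.87, each on its only probe set. LOC543297 rose by 3.12 on its steepest probe set, with 2 of its 3 tested probe sets higher and an uncalled 0.17 on the other. LOC606365 rose on both of its probe sets, by 1.17 and 2.74, and LOC543342 on both, by 0.58 and 2.70. The size of a gene's rise thus depended on the probe set read. LOC543422, already bright at 0 h, rose on all 3 of its probe sets, by 1.70 to 2.62. Its x_at probe set Ta.278.1.S1_x_at read 7054, 11300 and 4681 and then 49110, 44210 and 40040. By the gain in signal rather than the ratio, LOC543197 also entered the named set, with 10710, 11130 and 10370 at 0 h and 34850, 32880 and 29820 at 24 h (1.60).

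LOC606359 rose from signals far below the filter level on all 3 arrays at 0 h, as LOC606365 (6.707 to 12.34 at 0 h) and LOC100037618 (13.97 to 48.03) also did. Its probe set Ta.7388.2.S1_x_at read 2.392, 4.415 and 3.221 at 0 h and 276.8, 276.5 and 387.8 at 24 h. It rose by 4.08 ± 0.49 (SE, adjusted p = 1.55e-06) with the offset of 16, and by 6.19 with an offset of 1. Its other probe sets rose too, by 3.98 and 2.48.

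Still larger rises came from probe sets without a gene in the annotation. Ta.26752.1.A1_at read 8.589, 6.802 and 9.611 at 0 h and 8309, 6617 and 4618 at 24 h, a log2 change of 8.03 ± 0.35 (SE, adjusted p = 3.98e-12), the largest of all probe sets tested. Ta.12963.1.S1_at went from 57.9, 3.502 and 7.712 to 6998, 5764 and 3164 (7.28). Ta.28289.1.S1_x_at went from 68.71, 13.19 and 6.859 to 7496, 6669 and 9517 (7.67). Dim signals of the 0 h leaf thus became moderately bright on all 3 arrays at 24 h. Of the 4 tested probe sets in the Ta.28289 cluster 3 rose and the other had -0.94.

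Genes of photosynthesis and carbon metabolism held many falls and many uncalled probe sets. PRK, phosphoribulokinase of the Calvin cycle, fell by 1.76 ± 0.17 (SE, adjusted p = 1.00e-07), from 58080, 69250 and 60390 to 16640, 21770 and 17390. FBP, the fructose-1,6-bisphosphatase gene, had a bright probe set that fell by 2.34 ± 0.14 (adjusted p = 2.19e-10), from 17480, 18970 and 19590 to 3616, 3915 and 3490. A dim FBP probe set had an uncalled 0.32. The drop of PRK and of the bright FBP probe set kept its call and direction under every alternative tried, quantile normalization and hybridisation control scaling included.

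Triose phosphate genes fell as steeply. Pgk-1, phosphoglycerate kinase, went from 50680, 60160 and 52180 to 8844, 14620 and 13420 (-2.17 ± 0.25 SE, adjusted p = 9.06e-07). GAPN, the non-phosphorylating glyceraldehyde-3-phosphate dehydrogenase, went from 8207, 8576 and 8689 to 966.2, 1700 and 1309 (-2.70 ± 0.27, adjusted p = 1.51e-07). They made up the glycolysis and triose phosphate list. The phosphofructokinase symbol PFK, kept outside it and named after its value was seen, had a dim probe set at an uncalled -0.26.

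The Rubisco large subunit gene rbcL, encoded in the chloroplast, has 28 probe sets on the array, which gave no single answer. Of the 20 tested, 7 were lower and 13 uncalled, from -2.69 to 0.76, and 10 of the uncalled ones had a mean 0 h signal under 160. The steepest fall was TaAffx.128414.72.S1_at, with 8825, 4089 and 5861 at 0 h and 861.9, 1212 and 722.1 at 24 h. The brightest, Ta.24976.1.S1_x_at, read 76030, 94880 and 89670 and then 58040, 58980 and 48940, a change of -0.65. That change was 0.07 after quantile normalization and -0.05 on the hybridisation control scale, uncalled in both. The carbon fixation list had 23 tested probe sets, 20 of them of rbcL, so its numbers mostly describe that gene. Of the 23, 9 were lower, 7 of these of rbcL, and none higher. Over all tested probe sets 14.5% were lower and 17.6% higher. The list's median was -0.60 against -0.02 over all probe sets, and 4 of its probe sets were lower and 1 higher on the hybridisation control scale.

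The list for light harvesting and electron transport matched only PsbO, PsbP and petC, none of them a light-harvesting protein gene. Apart from a dim petC probe set, their probe sets were bright at both times and fell less. PsbP, of the oxygen-evolving complex, fell by 1.39 ± 0.15 (SE, adjusted p = 5.21e-07) on one probe set, from 51080, 55170 and 55550 to 18720, 23230 and 20170. Its other probe set fell by 0.94, from 65980, 80620 and 74740 to 39280, 40310 and 35810. PsbO, of the same complex, went from 62930, 73330 and 73630 to 44950, 45730 and 40300, a change of -0.68 as deposited that was 0.04 after quantile normalization and -0.08 on the hybridisation control scale, without a call in either. The bright petC probe set, for the Rieske protein of the cytochrome b6f complex, fell by 0.90, from 57710, 69540 and 63550 to 36120, 35430 and 30780. A dim petC probe set rose by 2.07 (5.403, 6.543 and 3.324, then 101.6, 92.3 and 37.85). Of the 5 tested probe sets in this list 4 were lower and 1 higher as deposited, 2 were lower after quantile normalization and 1 on the hybridisation control scale. The steeper PsbP probe set kept its call on all of these scales. The other PsbP probe set was uncalled after quantile normalization (-0.22) and on the hybridisation control scale (-0.33). The bright petC probe set stood at -0.22, still called, after quantile normalization and at -0.30, uncalled, on the hybridisation control scale.

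Redox and detoxification genes fell together as deposited. All 10 tested probe sets of the catalase, thioredoxin and glutathione list, from 5 genes, were lower, with a median of -1.86. Over all tested probe sets 14.5% were lower. CAT1, catalase, went from 44010, 53520 and 50830 to 14080, 15140 and 11660 on its bright probe set (-1.86 ± 0.13 SE, adjusted p = 1.39e-09). Trx-M, a chloroplast thioredoxin, went from 45190, 52320 and 50220 to 12630, 14050 and 14110 (-1.85). The glyoxalase gene lgul, which detoxifies methylglyoxal with glutathione, fell by 2.86 and 3.51 on its pair of probe sets, one of them reading 6990, 8153 and 7151 and then 526.6, 744.3 and 657.8. The glutathione transferase gene GSTZ1 fell by 0.36 to 0.59 as deposited, but its 3 probe sets stood at 0.01 to 0.25 on the hybridisation control scale, without a call. After median centring they stood at -0.40 to -0.17, also uncalled. TSA, of which no role is given here, fell by 1.77 and 2.03. CAT1 (bright probe set), Trx-M, GSTZ1 and the TSA probe set at -1.77 were named after their values were seen.

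TaPrx1, a symbol in use for peroxidases and for peroxiredoxins, fell on all 4 probe sets by 2.59 to 3.72. Its brightest read 15340, 21850 and 19750 at 0 h and 794, 1842 and 1928 at 24 h (-3.72 ± 0.32 SE, adjusted p = 1.76e-08). PER1, the other gene of the list, had an uncalled 0.65 at signals of 91.26 to 152.2 and then 179.2 to 214.9, which did not overlap.

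**Figure D4:**
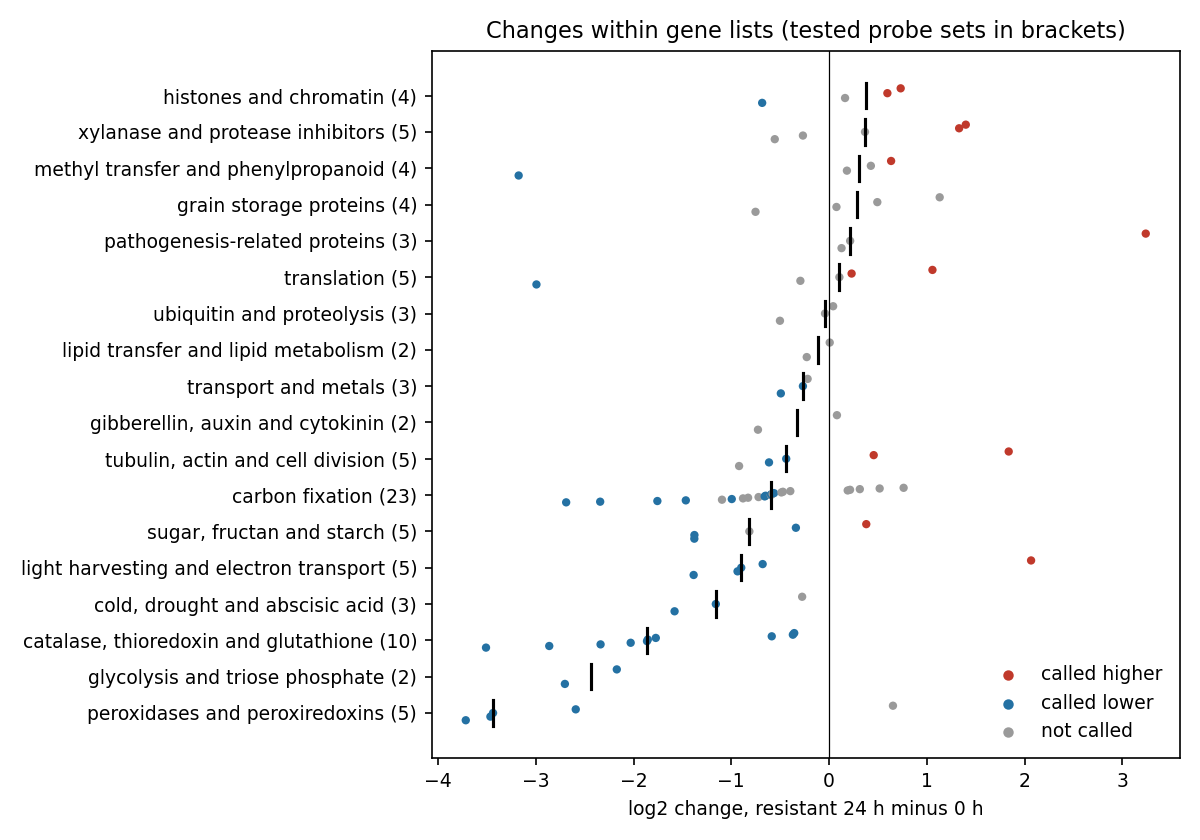
Log2 change (resistant 24 h minus 0 h) of each tested probe set in the gene lists with at least 2 tested probe sets, 1 point per probe set, red for called higher, blue for lower and grey for uncalled, with a black bar at each list's median. The redox and peroxidase lists lie farthest below 0 together with the triose phosphate genes, whereas the sugar, translation and tubulin lists hold both colours.

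Cell growth and housekeeping genes moved in both directions. The beta-tubulin gene tubb2 rose by 1.84 ± 0.21 (SE, adjusted p = 5.70e-07), from 1139, 2015 and 1215 to 5236, 4888 and 5108, and the alpha-tubulin gene TUBA rose by 0.46 on its bright probe set. Tubb4 fell by 0.61, from 7756, 8338 and 8568 to 5076, 5712 and 5313, and tubb1 by 0.44 as deposited. On the hybridisation control scale they stood at -0.01 and 0.16 without a call. The tubb1 call was also lost after median centring (-0.25) and without 24 h replicate 2 (-0.36). Outside that list, and named after their values were seen, tubb3 rose by 0.36 and Tubb5 rose by 1.07 on 1 of 4 tested probe sets, with uncalled values of 0.20, 0.33 and 0.78 on the rest. Tubulin genes therefore changed unequally. RPL9, a ribosomal protein gene, fell by 2.99 ± 0.22 (adjusted p = 2.60e-09), from 5029, 5541 and 4570 to 467.7, 686.2 and 734.9. RPS29, another, rose by 1.06 on one probe set and had an uncalled -0.29 on the other. TEF1, a translation elongation factor gene, had 0.11 and a called 0.23, a call lost in 6 alternatives.

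Of the chromatin genes Hmgb3, a high mobility group protein gene, rose on both probe sets, by 0.73 ± 0.12 (SE, adjusted p = 8.47e-05) and 0.60 ± 0.10 (adjusted p = 0.000102). The first read 2174, 2360 and 2325 at 0 h and 3854, 3473 and 4123 at 24 h. The histone gene H2A-3 fell by 0.68 on one probe set and had an uncalled 0.16 on the other. Its fall stood at -0.10 on the hybridisation control scale, at -0.50 after median centring and at -0.49 without 24 h replicate 1, uncalled in each.

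Reserve carbohydrate and stress genes showed smaller and less steady changes. The fructan hydrolase gene 1-FEH rose by 0.38, from 5454, 4591 and 5155 to 6946, 6252 and 6575, a call lost without 0 h replicate 2 (0.31). Both called probe sets of 6-FEH, another fructan hydrolase, were dim and fell by 1.38, and AGP-S, of starch synthesis, fell by 0.34 as deposited and stood at 0.26, uncalled, on the hybridisation control scale. The proton pump gene ha1 fell by 0.27 and 0.49 on a pair of its 3 probe sets, but the first stood at 0.28, called as higher, after quantile normalization, and they stood at 0.34 and 0.11, uncalled, on the hybridisation control scale. The dehydrin gene Rab15, which responds to abscisic acid, fell by 1.16 and 1.58 at signals of at most 247.1, with overlapping groups for the larger change. Calls of the dim genes were unsteady: on the hybridisation control scale Rab15 stood at -0.72 and -1.12 and 6-FEH at -0.86 and -1.003, all uncalled, and without 24 h replicate 3 the smaller Rab15 change was -0.81 and one of 6-FEH -0.88, both uncalled. The AGP-S call was also lost without 0 h replicate 2 (-0.27) or 24 h replicate 2 (-0.29), and that of ha1 at -0.27 without any one of 0 h replicate 2, 0 h replicate 3 or 24 h replicate 3 (-0.26 to -0.22). After median centring AGP-S stood at -0.15 and that ha1 probe set at -0.08, both uncalled. The smaller Rab15 change (-0.97) and 6-FEH Ta.9641.1.A1_a_at (-1.19) were uncalled there too. The immunophilin gene FKBP70 (0.16), the cell wall gene XTH (-0.94), LTP3 (-0.23 and 0.01) and UBC1 (-0.50 to 0.04) were not called as deposited. FKBP70 was called higher after quantile normalization (0.33), median centring (0.35) and hybridisation control scaling (0.77). The bright UBC1 probe set was called higher after quantile normalization (0.29) and on the hybridisation control scale (0.56). On the latter, LTP3 Ta.1282.1.S1_x_at (0.61) and UBC1 TaAffx.51048.1.S1_at (0.63) were called higher too.

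Several LOC genes fell further than any gene with a name. LOC543104 went from 1693, 1791 and 1616 to 73.59, 5.442 and 72.77 (-4.95 ± 0.44 SE, adjusted p = 2.53e-08). LOC100037528 went from 897.3, 1272 and 908.8 to 21.99, 11.7 and 45.54 (-4.68), and LOC543499 from 3347, 4498 and 3364 to 224.8, 131.2 and 429.2 (-3.89). LOC543256 was among the brightest leaf transcripts at 0 h, with 47040, 51270 and 49900, and read 2235, 9024 and 4449 at 24 h (-3.46). The 24 h arrays of LOC543256 spread widely, yet all lay far below the 0 h arrays. LOC543355 (47040, 51860 and 49670, then 5423, 10390 and 8732) and LOC100037609 (43450, 51440 and 50540, then 6906, 12730 and 8720) also left that bright group, by -2.65 and -2.40. LOC543329, LOC100125679 and LOC542859, with 1 probe set each, fell by 2.87 to 3.15. LOC543106 fell on both of its probe sets, with changes of -1.97 and -3.25, and LOC100037585 on all 3, with changes between -2.94 and -1.63.

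The deepest falls of all were again in unannotated probe sets. Ta.20215.1.S1_at read 1157, 1342 and 846.9 at 0 h and 24.66, 4.311 and 1.56 at 24 h (-5.51 ± 0.51 SE, adjusted p = 5.02e-08). Ta.9172.1.S1_at went from 14620, 17560 and 15630 to 168.7, 379.1 and 1072 (-5.21). All 6 tested probe sets of the Ta.9172 cluster fell, with log2 changes between -5.21 and -3.33, and so did all 3 of the Ta.514 cluster, with changes between -5.08 and -3.94.

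The probe sets named by the rule numbered 78, 70 from 56 annotated genes and 8 unannotated, 34 of them higher and 44 lower. Their values at 48 h share the 0 h arrays with those at 24 h, so the later step was read from 48 h minus 24 h, where 2390 of all tested probe sets (5.17%) were called. Among the 78 there were 4. The 78 were chosen for their 24 h values and this contrast reuses the 24 h arrays, so the choice itself favours a move back toward 0 h. LOC543287 changed by -1.03 (adjusted p = 0.0127), LOC100125679 by -1.63 (adjusted p = 0.00277), lgul by -1.60 on one probe set (adjusted p = 0.0119) and PEAMT1 by 0.83 (adjusted p = 0.0318). The changes of LOC543287 and PEAMT1 ran toward their 0 h level, the direction the choice favours, and those of LOC100125679 and lgul ran away from it. PR5 (3.24 against 0 h at 24 h, 2.82 at 48 h), TaPrx1 (-3.72 and -3.97), FBP (-2.34 and -2.70) and LOC543330 (4.89 and 4.55) were not called between 24 h and 48 h.

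The susceptible line TXGBE281 gave its own first-day change, and the difference between the lines' changes was tested directly. At that test 738 of all tested probe sets (1.60%) were called, and 5 of the 78, which were chosen on the resistant arrays that enter this test. The change in the susceptible line had the same sign for 73 of the 78. The share with the same sign over all tested probe sets was not counted, so that number has no baseline here. In the susceptible line 33.4% of all tested probe sets were called. Side by side, PR5 had 3.24 in TXGBE273 and 3.66 in TXGBE281, XIP-I 1.33 and 1.63, TaPrx1 -3.72 and -4.36, PRK -1.76 and -2.07 and CAT1 -1.86 and -1.91. None of these differences was called, which does not show that the lines responded equally.

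LOC606359 had the largest of these differences by size among annotated genes, with a wider error than TaGlu1a. In the susceptible line Ta.7388.2.S1_x_at read 3.188, 11.07 and 4.382 at 0 h and 3.316, 1.802 and 11.37 at 24 h, so it was far below the filter level there at both times. The difference between the lines' changes was 4.13 (adjusted p = 0.00214), and 4.02 (adjusted p = 0.00183) on Ta.7388.2.S1_a_at. At 48 h the resistant arrays read 230.7, 36.3 and 111.7 on the first of these.

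TaGlu1a moved in opposite directions. In the susceptible line it fell by 2.77, from 824.2, 980.5 and 1151 to 120, 107.4 and 166.1, against the rise of 0.83 in the resistant line. The lines' changes differed by 3.61 (adjusted p = 3.19e-05), and the susceptible arrays of the 2 times did not overlap. The susceptible fall was called by itself (limma, adjusted p = 1.41e-07), whereas the resistant rise was weakly called. The difference was called in each of 22 alternatives, from 3.24 to 3.81. All of these contain the resistant change, so they cannot show how far the difference rests on it.

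Hmgb3 was higher at 24 h in the resistant line, with 0.08 and 0.00 for its probe sets in the susceptible line. The line difference was called for one probe set (0.60, adjusted p = 0.0393) and not for the other (0.65, adjusted p = 0.0706). The called one lost its call in 15 of 22 alternatives, at adjusted p of up to 0.212. LOC100037618, which rose by 2.87 in the resistant line, had 0.65 in the susceptible line, a difference that was not called (adjusted p = 0.0905). The unannotated Ta.20215.1.S1_at, which fell by 5.51 in the resistant line, read 1541, 847.5 and 1134 at 0 h in TXGBE281 and 1112, 290.6 and 1471 at 24 h (-0.53). That line difference was -4.98 (adjusted p = 0.000535), and at 48 h the resistant arrays still read 52.28, 3.032 and 20.61.

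**Figure D5:**
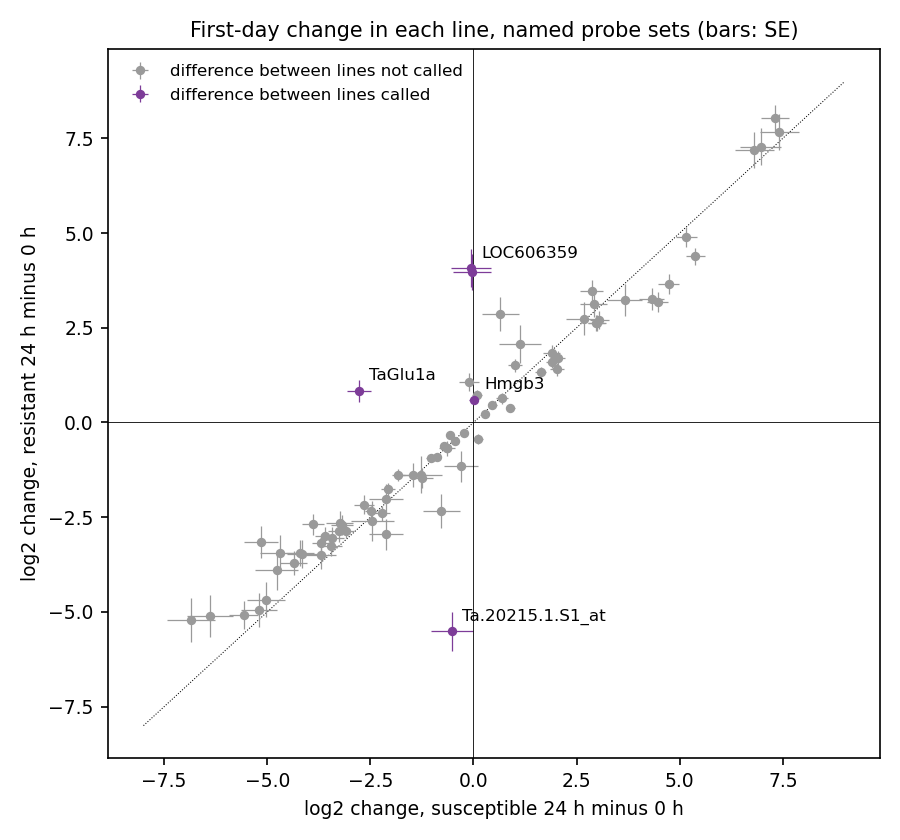
Log2 change at 24 h minus 0 h of the 78 named probe sets in the susceptible line (horizontal axis) and the resistant line (vertical axis), with standard errors and a dotted line of equal change. Purple points are the 5 probe sets whose difference between the lines was called, LOC606359, TaGlu1a and Hmgb3 above the dotted line and Ta.20215.1.S1_at below it.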

How the data were processed

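RNA from wheat leaves was hybridised to 1-colour Affymetrix wheat arrays. The deposited values are linear signal intensities made by the authors with MAS5, per the submitters' processing notes; the MAS5 version is not given in the sources used here, and detection calls were not used. The table held 61290 probe sets, of which 111 controls were left out. Values were analysed as log2(signal + 16), which understates changes of dim probe sets, with no further normalization. The filter kept probe sets above the array's 40th percentile (signals of 50.77 to 70.11) in at least 3 arrays. All 6 groups entered 1 linear model (limma 3.58.1, R 4.3.3) with a variance trend, and p-values were adjusted by Benjamini-Hochberg over 46251 probe sets, 19 of them with identifiers that start with RPTR. The steps were tested on simulated data. The number of arrays limits the precision, and an exact permutation test of 3 against 3 arrays cannot go below p = 0.1.

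Gene names came from the platform annotation, and from synonyms in a table of genes for assembly IWGSC CS RefSeq v2.1. No coordinates are given because the study names no assembly, and roles are textbook knowledge. Named are the annotated probe sets called and apart with the 15 largest log2 changes per direction, the 5 largest rises and falls of mean signal, in each gene list the 4 largest members per direction, and 4 unannotated probe sets per direction. The members, lists and rule were chosen with earlier results of these data known.

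Probe sets with fewer than 3 arrays above the 40th percentile outside resistant 24 h numbered 1080 (27 higher, 1 lower), and outside resistant 0 h 1623 (0 higher, 182 lower), so these passed through the group in which they were high. Alternatives were quantile normalization, median centring, hybridisation control scaling, offsets of 1 and 64, no filter or one at the 60th percentile, no variance trend, only the compared arrays, a block for the replicate number, and fits that dropped 1 array. The scaling of the 100 brightest and the alternatives for named line differences were added after seeing the data.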

Additional observations from a re-analysis of the deposited data

Results flagged for a closer look

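The first-day change differed between the lines, by the direct test of that difference, for 5 named probe sets. LOC606359 changed by 4.13 more in the resistant than the susceptible line on Ta.7388.2.S1_x_at and by 4.02 more on Ta.7388.2.S1_a_at, and over 22 alternatives these ranged from 2.49 to 6.47 and from 2.58 to 5.73, all called. TaGlu1a differed by 3.61 (3.24 to 3.81, all called). Hmgb3 differed by 0.60 on Ta.30768.1.S1_x_at (0.51 to 0.76, uncalled in 15 of 22). The unannotated Ta.20215.1.S1_at differed by -4.98 (-6.74 to -3.50, all called).

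A pair of control probe sets for plant genes, outside the comparisons above, were higher at 24 h in the resistant line, while the ubiquitin control went from 63210 ± 3640 (SD, n = 3) to 37110 ± 5157. The sucrose synthase control read 6577 ± 311.2 (SD, n = 3) at 0 h and 8461 ± 173.8 at 24 h. The glucose-6-phosphate dehydrogenase control read 1252 ± 9.29 and 1668 ± 164.9. The 3 arrays at 24 h lay above the 3 at 0 h for both, and no test was run on them. Both readings are of control probe sets at the 3' end only. Ratios of 3' to 5' signal ran from 12.2 to 22.0 at 0 h and 18.7 to 19.9 at 24 h for sucrose synthase. For glucose-6-phosphate dehydrogenase they ran from 2.43 to 3.61 and 3.34 to 3.89. A rise at the 5' end of these genes is therefore not shown.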

How the results depend on the processing

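Of the 78 named probe sets, 63 kept call and direction in every alternative, 15 lost the call in at least 1 and 5 reversed in at least 1. On the hybridisation control scale 15393 probe sets were higher and 2498 lower, 1008 were called from 24 h to 48 h and 416 between the lines; without the variance trend the last counts were 1009 and 390. The cause was not tested. With 1 array left out, calls ranged from 12805 to 13538 (6989 to 7613 higher, 5816 to 6050 lower), from 1265 to 1667 for 48 h minus 24 h and from 476 to 1304 for the line difference. For 48 h minus 24 h, leaving out resistant 24 h replicate 1 gave 1265, its replicate 2 gave 1524 and resistant 48 h replicate 2 gave 1502, against 2390. The line difference, 738 in full, had 1304 calls without susceptible 24 h replicate 2 and 476 without its replicate 3. Reversed were ha1 Ta.28364.1.S1_x_at (0.28 quantile, 0.34 hybridisation controls), ha1 TaAffx.55278.1.S1_x_at (0.11), AGP-S (0.26) and tubb1 (0.16) on the hybridisation controls, and PsbO (0.044) with quantile normalization. The hybridisation control scale put the median of all tested probe sets at 0.50 against -0.02, so falls as small as these turn on it by construction. Probe sets uncalled as deposited were also called higher on that scale, SAHH (0.79 and 1.03), Glc1 Ta.3760.2.A1_a_at (0.81) and PER1 (1.19) among them. With the replicate number as a block, 14804 probe sets were called, 2482 for 48 h minus 24 h and 842 for the line difference. Deviations of same-numbered resistant arrays at 0 h and 24 h correlated at -0.00244, -0.0109 and 0.00592. These values show no pairing by number. They cannot tell whether such arrays shared a plant or a processing day, and what the number stands for is not stated. An offset of 1 moved LOC606359 Ta.7388.2.S1_x_at to 6.19, the dim petC probe set to 3.60 and 6-FEH Ta.9641.1.A1_a_at to -2.28, so dim signals limit the sizes of such changes.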

Other observations

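A further 66 tested probe sets of named genes were grouped after their values were seen, of which 9 were higher and 12 lower, with a median log2 change of -0.06. Over all tested probe sets 17.6% were higher and 14.5% lower, so these counts do not set the group apart. The TATA-binding protein gene TBP1 rose by 0.76, from 1171, 993.9 and 982.6 to 1741, 1945 and 1657. AdSS and APT1, of purine synthesis and salvage, rose by 0.62 and 0.58, and the cap-binding gene eIF4E rose by 0.56, from 2274, 2384 and 2356 to 3339, 3381 and 3662. These rises stayed called on every scale tried.

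Among the falls, the phytochelatin synthase gene PCS1 fell by 0.99, from 1109, 762 and 1139 to 471.1, 502.2 and 495.4, and stood at -0.40 on the hybridisation control scale without a call. AGA.1 fell by 1.48 on one probe set, from 3768, 4997 and 4559 to 1400, 1671 and 1656. The actin-binding Profilin-1 gene fell by 0.63 and 0.40 and cys1 by 0.59 and 0.50 as deposited, but after quantile normalization all 4 probe sets lay between -0.12 and 0.02, without a call. TCTP (0.04, with 32260, 31570 and 31970 and then 36600, 31690 and 30760) and the cap-binding gene NCBP (0.05) were not called as deposited. TCTP was called higher after quantile normalization (0.55), median centring (0.23) and hybridisation control scaling (0.65), and NCBP on the last of these (0.65). The medians of all tested probe sets on these scales were 0.05, 0.17 and 0.50.

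The ubiquitin control probe set at the 5' end read 61400, 67400 and 60830 at 0 h and 41970, 37660 and 31700 at 24 h. Ratios of 3' to 5' control probe sets ran from 12.2 to 22.0 and 18.7 to 19.9 for sucrose synthase and from 2.43 to 3.61 and 3.34 to 3.89 for glucose-6-phosphate dehydrogenase.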
